A study of Mus musculus with 4 samples.

Results

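MHC class I antigen presentation was followed through 10 genes chosen by name for their place in the pathway, of 54752 genes in each table. They are the classical heavy chains H2-K1 and H2-D1, their light chain B2m, the peptide transporter genes Tap1 and Tap2, the tapasin gene Tapbp, the immunoproteasome subunits Psmb8, Psmb9 and Psmb10, and Nlrc5, a transcriptional activator of the pathway. Total RNA of C57BL/6 mouse epidermis at P0, the day of birth, was sequenced from 2 Skiv2l ctl pups and 2 Skiv2l fl/fl K14-Cre pups. Skiv2l encodes the helicase that feeds RNA to the cytoplasmic exosome. In the knockout pups Cre is driven constitutively by the keratin 14 promoter, and the paper describes the deletion as keratinocyte-specific. Which cells lost the gene was not measured in these libraries. The Skiv2l ctl group pools littermates that kept a working Skiv2l allele or had no Cre (Skiv2l fl/+ K14-Cre, Skiv2l fl/+ or Skiv2l fl/fl), and which of these each control pup carried is not given.

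Nearly every nucleated cell displays peptides from its own proteins on MHC class I molecules, which CD8 T cells inspect. The proteasome cuts proteins into peptides, the TAP transporter carries the peptides into the endoplasmic reticulum, and tapasin with helper chaperones loads them onto a heavy chain paired with B2m. Interferon raises most of these genes together, through interferon-response sites and through a promoter module that NLRC5 uses. Some of their promoters also carry NF-kB sites. Keratinocytes carry class I at rest and more in inflamed skin.

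All 10 genes were among the 13609 protein-coding genes tested, and all 4 libraries gave them an FPKM above 0. FPKM scales the fragments of a gene by transcript length and library size, so that levels of different genes can be compared. The pathway did not move as a block. H2-K1, H2-D1 and Nlrc5 rose in Skiv2l fl/fl K14-Cre epidermis, B2m and Tapbp fell, and Tap1, Tap2, Psmb8, Psmb9 and Psmb10 did not pass the test (limma on log2(FPKM + 1), Benjamini-Hochberg adjusted p under 0.05). That is 3 genes higher and 2 lower of 10, beside 8.99% higher and 25.4% lower of all tested genes, or 34.4% in either direction. The median log2 fold change of the 10 genes was -0.10, beside -0.20 for all tested genes. Both knockout libraries lay above both controls for 3 of the 10 genes, as for 18.2% of all tested genes, and below both for 4, as for 55.3%. The median of all tested genes moved from -0.20 to -0.03 when libraries were scaled to one median FPKM and to -0.05 with quantile normalization, and the split of calls went from 1223 higher and 3455 lower to 1894 and 1623 and to 1683 and 1914. The 5 calls held under both scalings. With no filter on FPKM, which adds 8312 protein-coding genes to the test, limma called 0 of the 10 (adjusted p 0.0544 to 0.216 for the 5), with 2 higher and 3 lower at an unadjusted p under 0.05. The same setting ended 30 of 43 calls among the other genes named with values below (adjusted p 0.0510 to 0.264), and the 13 that held were those of Blmh, Nfyb, Ifngr1, Jak2, Irf7, H2-Ab1, H2-Aa, Cd74, Psors1c2, S100a8, S100a9, Cxcr2 and Dcn.

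**Figure D1:**
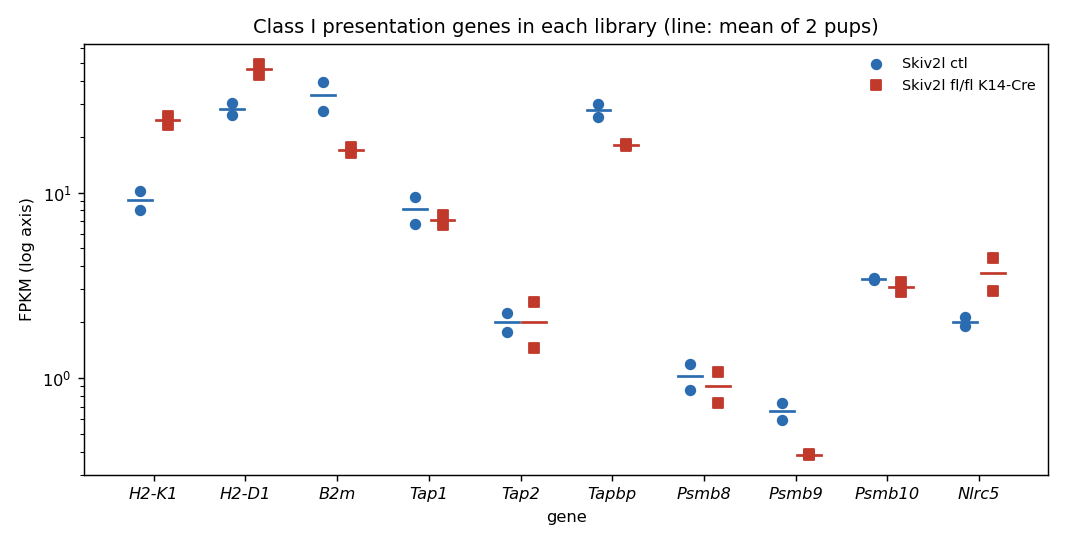
FPKM of the 10 class I presentation genes in each library on a log axis, with blue circles for the 2 Skiv2l ctl pups, red squares for the 2 Skiv2l fl/fl K14-Cre pups and lines at the group means. The groups are apart for H2-K1, H2-D1 and Nlrc5 with the knockouts above, and for B2m, Tapbp, Psmb9 and Psmb10 with the knockouts below, while Tap1, Tap2 and Psmb8 overlap.

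The stretch before the transcription start is shown for H2-K1, H2-D1 and B2m, the genes whose products form the class I molecule, because these 3 promoters carry the same kinds of motif while the transcripts moved in opposite directions. The sequences are 250 bases upstream of the RefSeq start on GRCm38.p6, written 5′ to 3′ on the gene's strand, at chr17:34000348-34000597 (minus strand) for H2-K1, chr17:35262844-35263093 (plus strand) for H2-D1 and chr2:122147437-122147686 (plus strand) for B2m. H2-K1 has 2 RefSeq starts, of which the more upstream is used. Distances below are counted from the annotated start of each gene and depend on where that start is placed. Capitals mark matches on either strand to the interferon-regulatory-factor core AANNGAAA, the NF-kB consensus, the X2 core TGACG and the Y box CCAAT.
H2-K1: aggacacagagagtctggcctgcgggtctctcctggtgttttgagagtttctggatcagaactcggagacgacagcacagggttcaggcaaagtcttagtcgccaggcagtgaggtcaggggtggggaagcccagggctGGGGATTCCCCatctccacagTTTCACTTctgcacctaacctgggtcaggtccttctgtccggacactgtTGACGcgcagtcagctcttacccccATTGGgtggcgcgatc
H2-D1: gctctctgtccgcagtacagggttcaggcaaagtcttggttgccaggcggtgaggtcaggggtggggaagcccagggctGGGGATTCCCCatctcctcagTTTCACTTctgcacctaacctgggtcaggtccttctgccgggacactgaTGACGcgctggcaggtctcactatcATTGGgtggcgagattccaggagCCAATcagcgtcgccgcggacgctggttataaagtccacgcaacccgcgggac
B2m: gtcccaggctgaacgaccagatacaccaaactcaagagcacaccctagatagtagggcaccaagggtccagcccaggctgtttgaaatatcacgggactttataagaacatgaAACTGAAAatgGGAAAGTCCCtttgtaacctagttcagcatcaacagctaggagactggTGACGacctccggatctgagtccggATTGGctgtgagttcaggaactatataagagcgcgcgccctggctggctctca

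In the promoters of H2-K1 and H2-D1 the NF-kB stretch, the interferon-regulatory-factor core, the X2 core and a Y box follow one another in that order, and in B2m the first and second of them change places. The NF-kB stretch lies 111 to 101 bases before the start in H2-K1 and 171 to 161 in H2-D1, where overlapping matches on both strands make up one palindromic run, and 126 to 117 bases before the start in B2m. The interferon-regulatory-factor core lies 90 to 83 bases before the start in H2-K1, 150 to 143 in H2-D1 and 137 to 130 in B2m. The H2-K1 and H2-D1 stretches were identical at 170 of 190 aligned bases (89.5%), and H2-K1 and B2m at 134 of 211 (63.5%). All 4 motifs occurred together in 22 of 32851 RefSeq windows of this length (0.067%), and singly in 21.3% (interferon-regulatory-factor core), 3.9% (NF-kB), 17.8% (X2) and 33.8% (Y box). Of the other 5 members matched to a RefSeq start, Tap1 and Psmb9, which face away from each other across one shared stretch, held an X2 core and a Y box, Tapbp held Y boxes, and Psmb8 and Psmb10 held none of the 4. Tap2 and Nlrc5 were not matched. These matches describe letters, and binding was not measured.

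H2-K1 and H2-D1 encode the heavy chains that bind peptide and face the T cell receptor. H2-K1 (chromosome 17, 33996017 to 34000347, minus strand) stood at 8.07 and 10.25 FPKM in Skiv2l ctl and at 25.8 and 23.2 FPKM in Skiv2l fl/fl K14-Cre epidermis. Both knockout pups were above both controls by more than the gap between pups of either genotype. The means were 9.16 ± 1.54 and 24.5 ± 1.83 FPKM (SD, n = 2), a 2.68-fold rise, with a log2 fold change of 1.34 (SE 0.13, limma adjusted p = 0.00129). H2-D1 (chromosome 17, 35262730 to 35267499, plus strand) was the more abundant heavy chain in every library, at 26.3 and 30.5 FPKM in the controls and 49.7 and 43.3 FPKM in the knockouts. Its groups did not overlap, and its mean rose 1.64-fold (log2 fold change 0.69, SE 0.11, adjusted p = 0.00675). H2-K1 gained on H2-D1, its level going from 0.307 and 0.336 of the H2-D1 level to 0.520 and 0.536. Heavy chain genes are alike in sequence, and 3.10% of the 75-base stretches of H2-K1 transcripts and 5.40% of those of H2-D1 occur in another gene. H2-K1 kept its call without any one library (adjusted p 0.00662 to 0.0237), while H2-D1 missed it without the first control (adjusted p = 0.0688).

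No other class I heavy chain was called higher. Of 28 nonclassical and other heavy chain genes, 25 were in the tables and 8 of these were at 0 in every library. The 5 tested were protein-coding and passed the filter on low values. Of the 5, none rose (limma, none also at an unadjusted p under 0.05) and 1 fell (20%, beside 25.4% of all tested genes). Their median log2 fold change was -0.25. H2-T22, a nonclassical heavy chain recognised by some gamma delta T cells, was at 18.7 and 19.3 FPKM in the controls and 12.8 and 11.3 FPKM in the knockouts (log2 fold change -0.62, SE 0.10, adjusted p = 0.00641), though 18.5% of its 75-base stretches occur in other genes, mostly H2-T10, and the call was missed without the first (adjusted p = 0.0684) or second control (0.0777). H2-T23, which encodes Qa-1 and presents to NKG2A receptors, was at 23.1 and 23.5 FPKM against 18.6 and 20.5 FPKM (adjusted p = 0.0799, and 0.0466 with TPM). H2-Q1, near the limit of the filter, was listed at 0 and 0.350 FPKM in the controls and 0.558 and 0.539 FPKM in the knockouts, with both knockouts higher (adjusted p = 0.136). The 25 genes summed to 50.8 and 51.7 FPKM in control pups and 39.1 and 39.4 FPKM in knockout pups. H2-K1 and H2-D1 together went from 40.4% and 44.1% of all class I heavy chain FPKM to 65.8% and 62.8%. All 27 heavy chains summed to 85.1 and 92.4 FPKM in control pups and 115 and 106 FPKM in knockout pups, a 1.24-fold difference of means.

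B2m, the invariant light chain without which the heavy chain is not stably displayed, went the other way. B2m (chromosome 2, 122147686 to 122153083, plus strand) stood at 27.6 and 39.4 FPKM in Skiv2l ctl pups and at 17.6 and 16.3 FPKM in the knockouts. The 2 controls differed from each other by more than the 2 knockouts did, and both stayed above both knockouts. The mean was 1.97-fold higher in the controls (log2 fold change -0.92, SE 0.17, adjusted p = 0.00987). Without the second control, the higher of the pair, the adjusted p was 0.0512. No 75-base stretch of B2m occurs in another gene and no annotated exon overlaps it.

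The opposite moves changed the proportion of heavy to light chain transcript. H2-K1 and H2-D1 together gave 1.25 and 1.03 FPKM per FPKM of B2m for control pups and 4.28 and 4.08 for knockout pups, a 3.67-fold difference of means. With all 27 heavy chains counted, the ratio was 3.09 and 2.35 in control pups against 6.50 and 6.50. The groups did not overlap in either ratio, and the exact permutation test gave p = 0.333, the smallest two-sided value that 2 pups against 2 can give. A ratio within a library does not depend on a single scaling factor per library. Quantile normalization can change it, and the ratios were not recomputed under that setting.

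**Figure D2:**
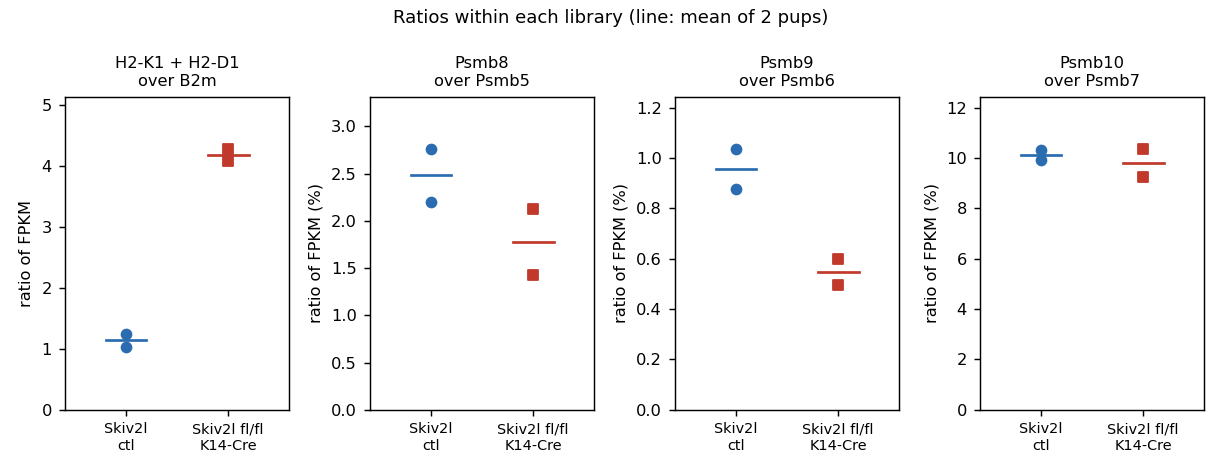
Ratios of FPKM within each library, as a plain ratio for H2-K1 + H2-D1 over B2m and in percent for each immunoproteasome subunit over the standard subunit it replaces, with 2 Skiv2l ctl pups (blue circles), 2 Skiv2l fl/fl K14-Cre pups (red squares) and lines at the means. The first ratio is 1.25 and 1.03 for the controls against 4.28 and 4.08, and of the subunit ratios only that of Psmb9 is lower in both knockouts with a clear gap to the controls.

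Tap1 and Tap2 encode the subunits of the peptide transporter, and neither passed the test. Tap1 (chromosome 17, 34187553 to 34197225, plus strand) was at 6.78 and 9.47 FPKM in the controls and 7.58 and 6.67 FPKM in the knockouts, with a log2 difference of -0.15 (SE 0.16, adjusted p = 0.481). Tap2 (chromosome 17, 34203527 to 34216321, plus strand) was at 1.76 and 2.24 FPKM against 2.56 and 1.45 FPKM, with a log2 difference of -0.02 (SE 0.21, adjusted p = 0.952). The groups overlapped for both genes, and the signs of both values turned with median scaling (0.03 and 0.12) and with quantile normalization (0.03 and 0.20). The first knockout was the highest library for Tap2 and the second the lowest. Tapbp, whose product tapasin bridges the transporter and the empty class I molecule, fell. Tapbp (chromosome 17, 33915899 to 33929292, plus strand) was at 25.6 and 30.1 FPKM in the controls and 18.3 and 17.8 FPKM in the knockouts, with no overlap and a 1.54-fold higher control mean (log2 fold change -0.60, SE 0.11, adjusted p = 0.00912). Its call was missed without the second control (adjusted p = 0.081). An antisense gene, Gm19412, overlaps 24.9% of its exon bases, and since no source used here says whether counting used strand, reads of the pair cannot be told apart there. The same limit holds for smaller opposite-strand overlaps, with 14.1% of exon bases for Tap2 (Gm15821) and 14.7% for Psmb8 (Gm20496). For Psmb7 the share was 11.8% (Nek6), and Psmb9 and Tap1 overlap each other at 5.79% and 3.87%.

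Psmb8, Psmb9 and Psmb10 replace the catalytic subunits Psmb5, Psmb6 and Psmb7 of the standard proteasome and shift its cuts towards peptides that fit class I. All 3 immunosubunits were far below the standard ones, and none passed the test. Psmb8 (chromosome 17, 34197721 to 34201454, plus strand) was at 0.856 and 1.18 FPKM in the controls and 1.08 and 0.735 FPKM in the knockouts, with overlapping groups (log2 fold change -0.08, SE 0.17, adjusted p = 0.710). Psmb9 (chromosome 17, 34181987 to 34187764, minus strand) was at 0.591 and 0.734 FPKM against 0.382 and 0.388 FPKM, with both knockouts lower (log2 fold change -0.26, SE 0.14, adjusted p = 0.199). At this level the pseudocount of 1 shrinks the change, and on the plain FPKM scale the control mean of Psmb9 was 1.72-fold higher. Its deposited coverage, the mean read depth per base, was 1.67 and 1.70 for the controls against 0.987 and 0.908. Psmb10 (chromosome 8, 105935735 to 105938444, minus strand) was the highest of them, at 3.36 and 3.46 FPKM against 3.28 and 2.92 FPKM (log2 fold change -0.11, SE 0.12, adjusted p = 0.494). Both scalings turned the sign for Psmb8 (0.02 with median scaling and 0.10 with quantile normalization) and Psmb10 (0.05 and 0.12).

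Of the 14 standard core subunits tested, 1 rose (7.14%) and none fell (limma, also none lower at an unadjusted p under 0.05). Among all tested genes 8.99% rose and 25.4% fell. The median log2 fold change of the 14 was -0.05. Psmb5, which carries the chymotrypsin-like activity, was at 38.8 and 42.7 FPKM in the controls and 50.6 and 51.6 FPKM in the knockouts (log2 fold change 0.32, SE 0.09, adjusted p = 0.0341). The call was missed without any one library, with adjusted p from 0.0593 to 0.187, and with no trend in the variance (0.0647), and 36.8% of its 75-base stretches occur in other genes, mostly Gm3375. Psmb6 was at 67.4 and 70.8 FPKM against 77.0 and 64.6 FPKM, and Psmb7 at 32.6 and 34.9 FPKM against 31.6 and 31.6 FPKM, and neither passed (adjusted p = 0.844 and 0.406). Psmb8 amounted to 2.20% and 2.76% of Psmb5 in control pups against 2.12% and 1.42% in knockout pups. Psmb9 amounted to 0.877% and 1.04% of Psmb6 against 0.497% and 0.600%, and Psmb10 to 10.31% and 9.91% of Psmb7 against 10.36% and 9.25%. The exact permutation p of the difference in the Psmb8 and Psmb9 ratios was 0.333 for each, the smallest possible. In neither genotype did an immunosubunit come near the level of its counterpart.

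Nlrc5, the member of the NLR family that activates class I promoters, rose from a low level. Nlrc5 (chromosome 8, 94434356 to 94527272, plus strand) was at 1.90 and 2.12 FPKM in the controls and 4.43 and 2.93 FPKM in the knockouts. Both knockouts were above both controls, and the 2 knockouts differed from each other more than either control did from the other. The mean rose 1.83-fold (log2 fold change 0.62, SE 0.18, adjusted p = 0.0420). It is the least steady of the 5 calls, missed without the first control (adjusted p = 0.205), the second control (0.157) or the first knockout (0.106). It was also missed with all genes of the tables tested (0.0647).

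**Figure D3:**
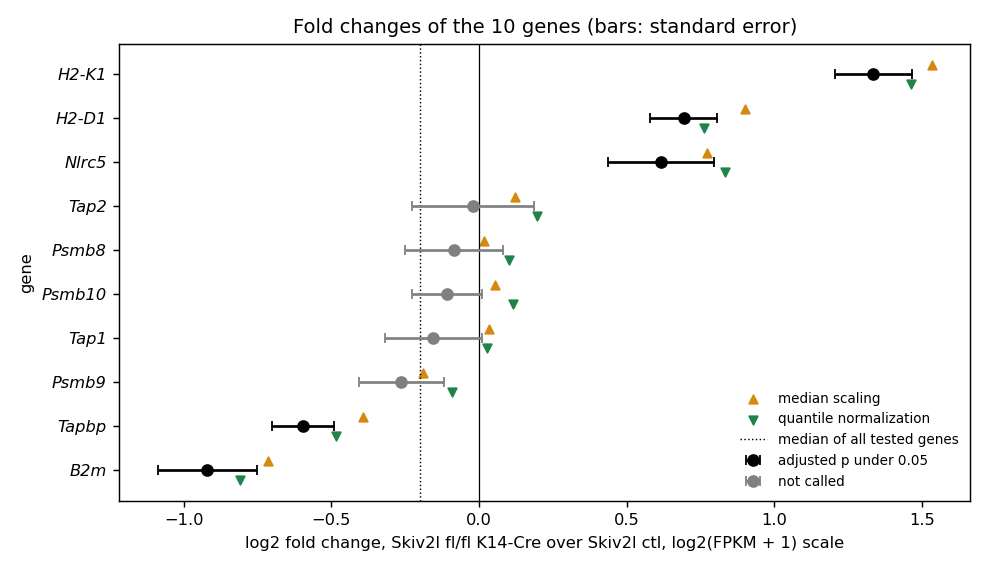
Log2 fold change of each of the 10 genes on the log2(FPKM + 1) scale, knockout over control, with bars for the standard error, black for an adjusted p under 0.05 and grey for the rest, and triangles for median scaling and quantile normalization. H2-K1 (1.34), H2-D1 (0.69) and Nlrc5 (0.62) lie above 0 and Tapbp (-0.60) and B2m (-0.92) below under all 3 scalings, while Tap1, Tap2, Psmb8 and Psmb10 change side.

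Around the 10 genes stands the machinery that trims and loads peptides. Of 18 trimming and loading genes tested, 3 rose (16.7%) and 2 fell (11.1%), beside 8.99% and 25.4% of all tested genes, with a median log2 fold change of -0.02. Ifi30, on the same list, is annotated as a processed transcript and was not tested. It was at 98.8 and 93.1 FPKM in the controls and 53.5 and 55.6 FPKM in the knockouts. Blmh, an aminopeptidase abundant in cornifying keratinocytes, was at 228 and 224 FPKM in the controls and 384 and 390 FPKM in the knockouts (log2 fold change 0.77, SE 0.08, adjusted p = 0.00145). Npepps, the puromycin-sensitive aminopeptidase, was at 50.7 and 41.2 FPKM against 72.7 and 70.4 FPKM (log2 fold change 0.64, adjusted p = 0.00965, and 0.0643 without the second control). The third riser was Tpp2, a large cytosolic peptidase (19.7 and 18.7 FPKM against 29.9 and 24.9 FPKM). Nrd1, the endopeptidase nardilysin, was at 139 and 136 FPKM against 75.1 and 56.3 FPKM (log2 fold change -1.07, SE 0.14, adjusted p = 0.00325, and 0.050 without the first control), and Thop1, which destroys cytosolic peptides, at 119.8 and 119 FPKM against 92.2 and 98.1 FPKM. The calls of Tpp2 and Thop1 were missed without the first control (adjusted p = 0.108 and 0.135) or the second (0.135 and 0.127), and that of Thop1 also without the first knockout (0.0618), with no trend in the variance (0.0555) and with median scaling (0.351). The chaperones that assist loading did not pass. Calr was at 144 and 156 FPKM against 141 and 157 FPKM, Canx at 57.6 and 67.3 FPKM against 60.3 and 68.2 FPKM, and Pdia3 at 84.6 and 96.4 FPKM against 79.1 and 83.1 FPKM (adjusted p = 0.924, 0.781 and 0.241). Erap1, which trims peptides inside the endoplasmic reticulum, was at 5.07 and 5.59 FPKM against 4.396 and 4.388 FPKM (adjusted p = 0.150).

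Of 9 proteasome activator and assembly genes, none rose (limma, none also at an unadjusted p under 0.05) and 2 fell. The 2 are 22.2% of the group, beside 25.4% lower among all tested genes. The median log2 fold change of the group was -0.33. Psme2, a subunit of the interferon-induced PA28 activator, was at 33.1 and 38.3 FPKM in the controls and 23.5 and 22.9 FPKM in the knockouts (log2 fold change -0.60, SE 0.10, adjusted p = 0.00765). The call was missed without the second control (0.0729), and 22.9% of its 75-base stretches occur in Psme2b. Its partner Psme1 was at 19.3 and 28.2 FPKM against 20.1 and 16.7 FPKM, with overlapping groups (adjusted p = 0.205). The other gene that fell was Psmg4, an assembly chaperone, at 5.63 and 6.07 FPKM against 4.34 and 3.41 FPKM (adjusted p = 0.0343), a call missed with both scalings (0.120 and 0.142), with all genes of the tables tested (0.0531) and without either control or the second knockout (0.0915 to 0.200).

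Of 19 other transcriptional regulators of class I, none rose (limma, none also at an unadjusted p under 0.05) and 5 fell. The 5 are 26.3% of the group, beside 25.4% lower among all tested genes. The median log2 fold change of the group was -0.20, beside -0.20 for all tested genes. Rfx5, the DNA-binding subunit of the complex on which NLRC5 acts, was at 5.90 and 5.89 FPKM in the controls and 3.605 and 3.01 FPKM in the knockouts (log2 fold change -0.68, SE 0.12, adjusted p = 0.00916). Its partners did not pass, with Rfxap at 4.50 and 3.59 FPKM against 4.62 and 5.54 FPKM and Rfxank at 8.88 and 9.13 FPKM against 7.05 and 8.91 FPKM (adjusted p = 0.185 and 0.344). Nfyb, a subunit of the factor that binds the Y box, was at 8.94 and 9.18 FPKM against 5.11 and 5.05 FPKM (log2 fold change -0.73, SE 0.10, adjusted p = 0.00380). Ezh2, the methyltransferase of a repressive histone mark that can silence class I genes, was at 19.2 and 19.1 FPKM against 10.28 and 11.9 FPKM (log2 fold change -0.74, SE 0.10, adjusted p = 0.00391). Without the first control the 3 calls were missed at adjusted p of 0.0587 to 0.0924, and without the second at 0.0570 to 0.0886. Relb, of the NF-kB family, and Creb1, a candidate binder of the X2 core, were the other genes that fell (8.70 and 8.04 FPKM against 5.39 and 4.63 FPKM, and 12.3 and 11.6 FPKM against 8.82 and 9.57 FPKM). Both calls were missed without the first control (adjusted p = 0.106 and 0.223) or the second (0.0796 and 0.154), and that of Creb1 also without the first knockout (0.0882), with both scalings (0.318 and 0.225), with no trend in the variance (0.0521) and with all genes of the tables (0.0560). Irf1, an interferon-induced activator of class I promoters, was at 1.75 and 1.90 FPKM against 2.20 and 2.47 FPKM (adjusted p = 0.186).

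Interferon is the usual inducer of the pathway. Of 13 interferon receptor and signalling genes, 3 rose (1 receptor chain, 1 kinase and 1 feedback inhibitor) and 2 fell. These are 23.1% and 15.4% of the group, beside 8.99% and 25.4% of all tested genes. Ifngr1, the ligand-binding chain of the interferon gamma receptor, was at 12.01 and 12.1 FPKM in the controls and 25.9 and 25.3 FPKM in the knockouts (log2 fold change 1.03, SE 0.09, adjusted p = 0.000778). Jak2, the kinase bound to that receptor, was at 6.96 and 7.57 FPKM against 11.8 and 11.7 FPKM (adjusted p = 0.00602, and 0.0772 and 0.0574 without the first and second control). Socs3, a feedback inhibitor, was at 14.5 and 10.99 FPKM against 23.97 and 16.8 FPKM (adjusted p = 0.0494), and its call was missed with TPM (0.0640), with no trend in the variance (0.0674), with all genes of the tables (0.0667) and without either control or the first knockout (0.102 to 0.256). Ifnar1 and Ifnlr1, receptor chains for type I and type III interferon, fell (12.5 and 12.9 FPKM against 10.04 and 10.07 FPKM, and 4.75 and 6.18 FPKM against 3.34 and 3.79 FPKM). Neither call held without any one library (adjusted p 0.0724 to 0.253), under either scaling (0.155 to 0.394) or with all genes of the tables (0.0619 and 0.0674), and that of Ifnar1 was missed with no trend in the variance (0.0585).

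Of 26 interferon-stimulated genes, 15 were protein-coding and passed the filter on low values. Of these, none rose (limma, none also at an unadjusted p under 0.05) and 4 fell (26.7%, beside 25.4% of all tested genes), with a median log2 fold change of -0.40. Irf7, the interferon-induced amplifier of the type I response, was at 25.8 and 26.9 FPKM in the controls and 2.83 and 1.65 FPKM in the knockouts (log2 fold change -3.10, SE 0.18, adjusted p = 0.000265). Ifi27 was at 6.77 and 9.62 FPKM against 4.44 and 3.69 FPKM (adjusted p = 0.0150), Irgm1 at 1.35 and 1.96 FPKM against 0.865 and 0.522 FPKM (adjusted p = 0.0387) and Ifit3 at 0.509 and 0.884 FPKM against 0.156 and 0.137 FPKM (adjusted p = 0.0484). Irf7 kept its call without any one library. Ifi27 missed it without the second control (0.104) or the second knockout (0.0599), and Irgm1 missed it without either control or the second knockout (0.0735 to 0.169) and with both scalings (0.0737 and 0.0894). Irgm1 missed it too with all genes of the tables (0.0620). Ifit3 missed it without the second control (0.126), the first knockout (0.107) or the second (0.125), with both scalings (0.0735 and 0.134) and with all genes of the tables (0.0734).

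**Figure D4:**
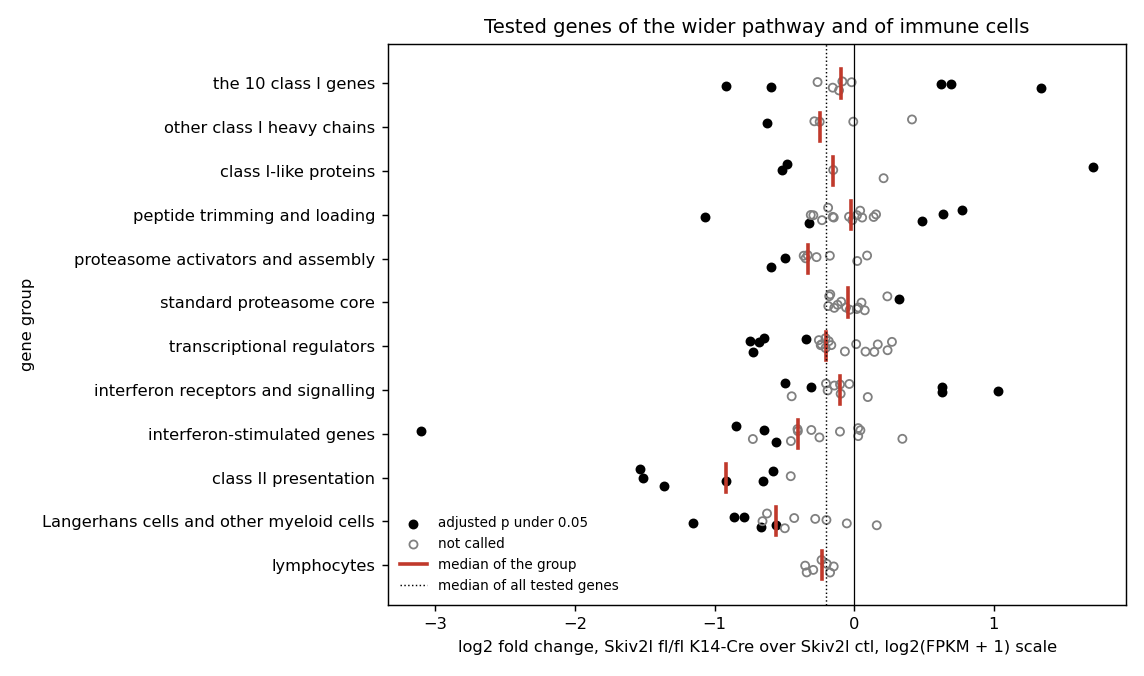
Log2 fold change, on the log2(FPKM + 1) scale, of every tested gene of the class I pathway, of its regulators and of immune cell markers, 1 row per group, with filled points for an adjusted p under 0.05, open points for the rest, a red bar at the median of the group and a dotted line at the median of all tested genes (-0.20). The 10 class I genes spread to both sides (-0.92 to 1.34), while all 7 class II genes lie below 0 and no interferon-stimulated gene is called higher.

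Relatives of the class I molecule also moved. Procr, the endothelial protein C receptor, which has a class I fold without presenting peptide, was at 0.280 and 0.383 FPKM in the controls and 4.07 and 2.74 FPKM in the knockouts (log2 fold change 1.71, SE 0.18, adjusted p = 0.00168, and 0.0575 with no filter on FPKM). Of the other 4 class I-like genes tested, Mr1, which presents vitamin metabolites, was at 3.31 and 3.58 FPKM against 2.22 and 1.99 FPKM, and Fcgrt, the neonatal Fc receptor, at 1.63 and 1.89 FPKM against 0.868 and 1.08 FPKM (adjusted p = 0.0230 and 0.0432). Both calls were missed with median scaling (0.0742 and 0.113) and quantile normalization (0.103 and 0.206). They were also missed without the first control (0.112 and 0.109), the second control (0.144 and 0.170) and the second knockout (0.0668 and 0.0628), and that of Fcgrt without the first knockout (0.117) and with all genes of the tables (0.0747). H60c, a skin ligand of the activating receptor NKG2D and the only 1 of 9 such ligands to be tested, was at 48.1 and 50.7 FPKM against 32.5 and 23.6 FPKM (log2 fold change -0.81, SE 0.15, adjusted p = 0.0106, and 0.0829 and 0.0946 without the first and second control).

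Leukocytes carry more class I than keratinocytes at rest, so transcripts of other cells were read beside the pathway. In whole epidermis, fewer cells of a type and less RNA per cell cannot be told apart. Class II genes, which mark antigen-presenting cells, fell for 6 of 7 tested (85.7%, beside 25.4% of all tested genes). None was higher (limma, also at an unadjusted p under 0.05), and their summed FPKM came to 26.1 and 30.2 for control pups against 8.22 and 8.16. Cd207, a Langerhans cell marker, was at 0.040 and 0.042 FPKM in the controls and 0 in both knockouts, too low to be tested. Which cells the class II transcripts came from was not tested. The invariant chain Cd74 was at 13.1 and 16.4 FPKM against 4.61 and 4.39 FPKM (log2 fold change -1.51, SE 0.13, adjusted p = 0.000857). H2-Ab1 was at 4.27 and 3.97 FPKM against 0.674 and 0.877 FPKM and H2-Aa at 3.09 and 3.61 FPKM against 0.743 and 0.631 FPKM (adjusted p = 0.000885 and 0.00137). Among 20 myeloid and lymphocyte markers tested of 28, neutrophil markers apart, none rose (limma, none also at an unadjusted p under 0.05) and 5 fell (25%, beside 25.4% of all tested genes), and their summed FPKM came to 64.4 and 82.5 for control pups against 52.1 and 44.2. The 5 were myeloid or pan-leukocyte genes. Ptprc, the pan-leukocyte antigen CD45, was at 3.57 and 3.31 FPKM against 1.87 and 1.71 FPKM (adjusted p = 0.0101), Csf1r at 6.77 and 9.26 FPKM against 4.38 and 3.48 FPKM (0.0131), Tyrobp at 7.38 and 8.54 FPKM against 4.15 and 4.21 FPKM (0.00472) and Cx3cr1 at 2.32 and 3.16 FPKM against 1.05 and 0.359 FPKM (0.0136). The fifth was Laptm5 (7.46 and 8.93 FPKM against 5.74 and 4.70 FPKM), whose call was missed with both scalings (0.0816 and 0.0857), without the first control (0.0929), the second (0.179) and the second knockout (0.0792). Without the second control the first 4 of these calls were missed at adjusted p of 0.0699 to 0.104, without the first control those of Cx3cr1 (0.0654) and Ptprc (0.0902), and without the second knockout that of Csf1r (0.0516). The part that leukocyte content plays in the B2m and Tapbp values was not tested. H2-K1 stood at 2.26 and 3.10 times the level of Ptprc in control pups and at 13.8 and 13.6 times in knockout pups. Ptprc itself fell, so this ratio grew by more than H2-K1 did. The part of leukocytes in the H2-K1 values was not tested either.

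Of 8 neutrophil markers, Ly6g and Elane were at 0 in all libraries. Csf3r, Mpo and Retnlg stayed under the filter with overlapping groups. Csf3r was at 0.119 and 0.462 FPKM in the controls and 0.315 and 0.461 FPKM in the knockouts. The other 3 were tested. All 3 rose, beside 8.99% of all tested genes. S100a8 went from 0.370 and 1.27 FPKM to 775 and 804 FPKM, and S100a9 from 0.928 and 1.61 FPKM to 974 and 965 FPKM. Cxcr2 went from 0.127 and 0.208 FPKM to 6.51 and 5.56 FPKM. S100a8 and S100a9 are also alarmins that stressed keratinocytes make. Of 5 dermal fibroblast markers tested, Pdgfra was at 0.299 and 0.250 FPKM in the controls and 0.789 and 0.668 FPKM in the knockouts (adjusted p = 0.0601, and under the threshold with TPM, both scalings and no trend in the variance, at 0.0254 to 0.0470), Col1a1 and Col3a1 overlapped between the groups, and Dcn (57.0 and 62.7 FPKM against 16.9 and 21.4 FPKM) and Col1a2 (2.60 and 3.58 FPKM against 1.84 and 1.48 FPKM) fell, and without the second control the call of Col1a2 was missed (adjusted p = 0.177), as it was without the first control (0.0710) or the second knockout (0.111) and with both scalings (0.0783 and 0.0923) and with all genes of the tables (0.0540). Of 5 melanocyte markers 1 rose (20%, beside 8.99% of all tested genes) and none fell. The 1 endothelial marker tested did not pass (limma, none lower in either list at an unadjusted p under 0.05). The part of these cells in the class I values was not tested.

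The libraries were alike in depth. The ratio of coverage to FPKM, which under the usual definition of these units is the aligned length in gigabases, was 5.843 to 6.274, and 16138 to 17761 genes per library had FPKM above 0.5, the fewest in the second knockout. Keratinocyte genes dominated all libraries, with the summed FPKM of 12 keratins and other keratinocyte markers at 28970 to 33227. Of the 12, Krt14 and Dsc1 rose (16.7%) and Krt15, Lor and Krt1 fell (25%), beside 8.99% and 25.4% of all tested genes. Skiv2l was at 19.3 and 19.1 FPKM in the controls and 10.8 and 8.56 FPKM in the knockouts (log2 fold change -0.92, adjusted p = 0.00368, and 0.0562 and 0.0547 without the first and second control), lower in both knockouts as labelled, with transcript left in the bulk tissue.

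Skiv2l itself lies inside the MHC, and 7 of the 10 genes lie within 1 Mb of it. Any stretch of chromosome 17 that travels with the floxed allele therefore cannot be told apart from loss of Skiv2l where the control pups were Skiv2l fl/+ or Skiv2l fl/+ K14-Cre. Of the 91 tested genes in that span, 6 (6.59%) rose and 34 (37.4%) fell, with a median log2 fold change of -0.29, beside 8.99%, 25.4% and -0.20 for all tested genes. H2-K1 lies 838.9 kb to one side of Skiv2l and H2-D1 412.5 kb to the other. Between them and at like distances stand genes that did not rise. The part of a linked stretch in the values of single genes was not tested. Tapbp, 909.9 kb from Skiv2l and beyond H2-K1, fell, and Psmb9, Tap1, Psmb8 and Tap2, 622.9 to 651.5 kb from Skiv2l on the side of H2-K1, did not pass. The class II genes H2-Ab1 and H2-Aa on that side were among the 34. The other 4 genes that rose (Psors1c2, Cdsn, 2300002M23Rik and Ier3) lie beyond H2-D1, the first 3 of them 683.0 to 717.2 kb from Skiv2l and Ier3 at 971.5 kb. Psors1c2 was at 2.72 and 4.65 FPKM in the controls and 58.9 and 69.4 FPKM in the knockouts. Cdsn, the corneodesmosome protein of the cornified layer, was at 568 and 599 FPKM against 929 and 942 FPKM. B2m, Psmb10 and Nlrc5, on chromosomes 2 and 8, are outside the region.

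**Figure D5:**
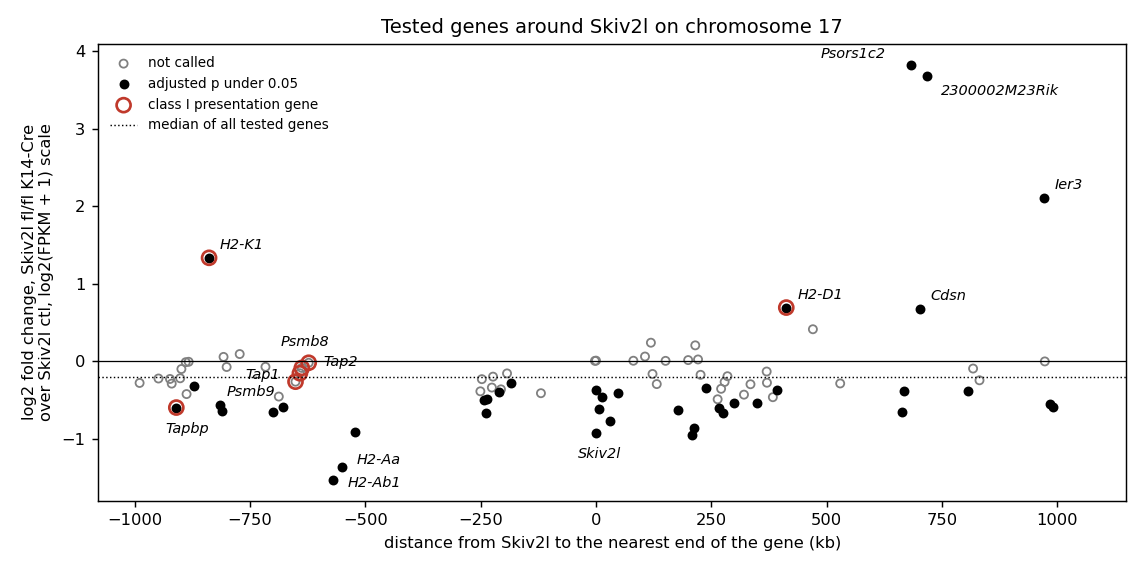
Log2 fold change of the 91 tested genes within 1 Mb of Skiv2l on chromosome 17, on the log2(FPKM + 1) scale, against the distance in kb from Skiv2l to the nearest end of the gene, with filled points for an adjusted p under 0.05 and red rings around the 7 class I presentation genes. H2-K1 and H2-D1 stand above 0 on either side of Skiv2l among genes that mostly lie below it, and 4 of the 6 genes called higher lie to the right of H2-D1.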

How the data were processed

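Total RNA from the epidermis of 4 pups, 2 per genotype, was sequenced and processed by the authors with their institution's RNA-seq workflow, on GRCm38 according to the submitters' processing notes. Aligner, read length and strandedness are not given in the sources used here. The authors deposited FPKM, in which a gene's fragments are divided by its length and by the size of its library. They also deposited TPM, rescaled by the authors so that every library has the same total, and a coverage signal, which the authors give as mean depth per base. No read counts were used, so counting error could not be computed and the 2 pups per genotype limit precision. Control genotypes are pooled in the labels. Replicate numbers come from the labels and name different animals.

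FPKM was summed per identifier, 10 of which are listed more than once in a table and none of them a member. Coordinates of 54037 of 54752 genes match GENCODE M21. A protein-coding gene was kept, by the paper's filter, where 1 or more libraries exceeded 0.5 FPKM (13609 of 21921). On log2(FPKM + 1), limma 3.58.1 (R 4.3.3) fitted the genotype with a mean-variance trend, and two-sided p-values were adjusted by Benjamini-Hochberg over the 13609 genes. The paper names iDEP without its settings. Single ratios and sums were compared by the exact permutation test, two-sided. Levels are means ± SD, and the log2 scale understates changes of low genes. Data simulated with known fold changes were used to check the fit.

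Sequence sharing was counted as 75-base stretches of GENCODE M21 transcripts that occur in other genes. Promoters are RefSeq windows of GRCm38.p6, of which 8 of the 10 members had one.

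The members and lists were chosen with earlier results of these data known. Named are every member, from each wider list up to 3 called genes with the largest change plus preset partners, and genes around Skiv2l. A preset partner is not reported here. The remaining called genes of small lists, the keratinocyte and other non-leukocyte markers, H2-T23 and H2-Q1 had been seen when they were named. The alternatives were TPM, 2 other scalings (median, quantile), a stricter filter (FPKM above 1 in 2 or more samples) and none, a pseudocount of 0.1, a block for the replicate number, no variance trend, all genes of the tables and leaving out each library.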

Additional observations from a re-analysis of the deposited data

How the results depend on the processing

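The values of 66 named genes and the counts over all tested genes and over the 10 class I genes were recomputed under 9 other settings and without each library, and the counts over the wider lists were not. Over all tested genes, the counts of 1223 higher and 3455 lower became 475 and 927 with no filter on FPKM, 1894 and 1623 with median scaling and 1683 and 1914 with quantile normalization. Leaving out 1 library gave 497 to 1146 higher and 805 to 3135 lower. Of the 10 class I genes, 0 were called higher and 0 lower with no filter (limma, 2 and 3 at an unadjusted p under 0.05), and leaving out 1 library gave 1 to 3 higher and 0 to 2 lower, the 0 without the second control, where 2 were lower at an unadjusted p under 0.05. The cause was not tested beyond the loss of a sample. H2-K1 kept its call in every setting but the one with no filter. Among the 56 other named genes, 30 of 43 calls ended with no filter. Psmb9, Ifit3, H2-Q1 and Pdgfra could not be tested with FPKM above 1 in at least 2 samples.

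The signs that turned were those of genes without a call. Tap1 was at 0.0346 with median scaling and 0.0285 with quantile normalization (-0.37 to 0.0612 without a library), Tap2 at 0.12 and 0.20 (-0.29 to 0.25), Psmb8 at 0.0188 and 0.10 (-0.21 to 0.0443), Psmb10 at 0.0543 and 0.12 and Rfxank at 0.0270 and 0.0079. With median scaling alone Calr was at 0.20, Pdia3 at 0.0571 and Psmb7 at 0.11, and with TPM Canx was at -0.0046 and Psmb6 at -0.0182. Without a library Calr ranged from -0.0866 to 0.0608, Canx from -0.0677 to 0.15 and Psmb6 from -0.10 to 0.15, and the log2 ratio of Psmb10 to Psmb7 went from -0.13 to 0.0354. The summed log2 difference of the class I heavy chains went from 0.31 to 0.53 with median scaling.

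The replicate number of the labels was not treated as a pairing in the main fit, and the labels give no litter or batch. Over 13609 genes the deviations of same-numbered pups correlated at -0.077, which with so few pups cannot exclude a shared litter or batch. With the number as a block, 1264 genes were higher and 3393 lower, and of 66 named genes the block ended the calls of Fcgrt, Creb1, Ifnar1 and Ifit3 (adjusted p = 0.0513, 0.0568, 0.0697 and 0.0591) and no other.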
